A study of Mus musculus with 40 samples.

Results

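The androgen-induced kidney genes described here are 8 genes, Kap, Akr1c21, Odc1, Cyp4b1, Cyp2e1, Cyp2d12, Acsm3 and Gusb, of 18194 genes measured by probe sets carrying 1 gene symbol. They were chosen by name as genes known to respond to androgen in mouse kidney, with earlier results of these data known, and each was read from its probe set with the highest mean over all 40 arrays. The study followed juvenile growth in male C57BL/6 mice, for which the labels name no treatment. There were 8 groups of 5 arrays: kidney at 1, 4 and 8 weeks, lung at the same ages, and heart at 1 and 4 weeks only. The study's design gives 5 animals for each age. The labels give no castration, hormone or other agent, so the groups differ in age and organ, and any change of circulating androgen with age is part of the age groups. No female or androgen-deprived group was analysed here.

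Testosterone acts on the epithelial cells of the proximal tubule, and the DNA elements of androgen responses are inverted repeats of a short half-site. The mouse kidney is strongly dimorphic between the sexes, and its proximal tubule holds most of the genes that respond. Kidney androgen-regulated protein, ornithine decarboxylase and beta-glucuronidase are the classical androgen responses of the mouse kidney, and in males circulating testosterone rises steeply at puberty, between weaning and early adulthood. The 4 to 8 week interval therefore spans male puberty and the 1 to 4 week interval precedes most of it.

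The window from 250 bases before to 50 bases after the annotated start was available for 7 of the 8 genes from RefSeq (build GRCm38.p6), and 5 windows are printed because they differ in the elements that a script could find. Cyp2d12 is named only. The windows lie at chr6:133853618-133853917 on the minus strand (Kap), chr13:4573825-4574124 on the plus strand (Akr1c21), chr12:17544623-17544922 on the plus strand (Odc1), chr4:115647672-115647971 on the minus strand (Cyp4b1) and chr7:140763569-140763868 on the plus strand (Cyp2e1). Each runs 5′ to 3′ toward the gene, and the annotated start follows letter 250. Capitals mark the TATA box in Kap and Cyp2e1 and the androgen response half-site, read on the opposite strand, in Cyp4b1.
Kap: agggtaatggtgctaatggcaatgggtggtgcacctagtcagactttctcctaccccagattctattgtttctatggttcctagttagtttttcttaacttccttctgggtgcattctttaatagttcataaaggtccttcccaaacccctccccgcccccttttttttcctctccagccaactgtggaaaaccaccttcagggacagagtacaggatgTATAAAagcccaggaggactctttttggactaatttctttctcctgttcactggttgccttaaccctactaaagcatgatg
Akr1c21: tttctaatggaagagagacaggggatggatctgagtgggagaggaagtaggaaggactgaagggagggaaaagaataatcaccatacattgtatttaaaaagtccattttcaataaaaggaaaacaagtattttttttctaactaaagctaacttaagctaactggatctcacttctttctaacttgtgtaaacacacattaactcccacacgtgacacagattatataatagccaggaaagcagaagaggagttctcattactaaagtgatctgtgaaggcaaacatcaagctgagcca
Odc1: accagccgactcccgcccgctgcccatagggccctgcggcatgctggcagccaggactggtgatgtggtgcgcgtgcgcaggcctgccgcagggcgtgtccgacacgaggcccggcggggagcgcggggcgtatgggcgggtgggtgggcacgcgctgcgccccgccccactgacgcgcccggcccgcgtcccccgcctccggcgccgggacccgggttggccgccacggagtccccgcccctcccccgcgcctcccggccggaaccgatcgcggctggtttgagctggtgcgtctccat
Cyp4b1: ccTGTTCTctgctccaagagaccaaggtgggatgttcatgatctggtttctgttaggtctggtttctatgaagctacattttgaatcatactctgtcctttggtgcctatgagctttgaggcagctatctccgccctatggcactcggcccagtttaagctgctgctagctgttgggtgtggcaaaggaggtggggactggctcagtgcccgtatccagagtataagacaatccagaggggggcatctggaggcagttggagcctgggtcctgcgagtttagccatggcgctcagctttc
Cyp2e1: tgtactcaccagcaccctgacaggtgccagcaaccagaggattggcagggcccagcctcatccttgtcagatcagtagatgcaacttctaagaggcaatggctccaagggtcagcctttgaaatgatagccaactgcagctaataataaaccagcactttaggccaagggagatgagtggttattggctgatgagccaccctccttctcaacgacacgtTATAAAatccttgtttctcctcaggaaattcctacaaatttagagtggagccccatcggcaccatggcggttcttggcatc

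The windows were searched on both strands for the full androgen response element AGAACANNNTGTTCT, its half-site AGAACA, and TATAAA. The half-site is contained in the full element. The full element was in none of the 7 windows and in 0.00913% of all 32851 windows of this length. The half-site was in 1 of the 7, that of Cyp4b1, beginning 248 bases before the start, and in 19.0% of all windows. TATAAA was in 2 of the 7, in Kap and Cyp2e1, in both cases beginning 31 bases before the start, and in 13.6% of all windows. Base composition set Odc1 apart from the others, with 78.0% G and C against 37.3% in Akr1c21 and a median of 52.7% over all windows. CCAAT was in 2 of the 7, Cyp2e1 and Acsm3, and in 37.4% of all windows, while consensus sites of HNF1 and HNF4, liver and kidney transcription factors, were in none of the 7 and in 0.00913% and 0.475% of all windows. These matches describe the letters of a short window and say nothing of binding there.

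The organ labels matched the defining markers on 38 of the 40 arrays. The array labelled 1 week heart 5 read 27186.8 for Sftpc, the surfactant gene of alveolar cells, and 2395.7 for Myh6, the cardiac myosin gene, while the array labelled 1 week lung 4 read 1982.5 and 36022.4. Both were left out, which leaves 4 arrays in those groups. On the 1 week kidney arrays the liver gene Alb ranged from 450.6 to 11531.1, highest on replicate 1 and next on replicate 5 (2920.6), against 322.5 to 415.5 at 4 weeks and 648.7 to 932.2 at 8 weeks. Replicates 3 and 4 of the 1 week kidneys were highest in adrenal genes. The 3′ minus 5′ difference of the beta-actin control probe sets, a sign of RNA quality on the log2 scale, was 0.34 to 0.51 in kidney at 1 week, 0.61 to 1.43 at 4 weeks and 0.73 to 0.99 at 8 weeks. It moved with the first step of age, and its part in the results below was not tested.

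In kidney, 6 of the 8 genes rose from 1 to 4 weeks, Gusb fell, and Kap did not pass the test. From 4 to 8 weeks 0 of the 8 passed the test, and 2, Akr1c21 and Cyp2d12, had an unadjusted p under 0.05. Changes are differences of log2(signal + 16), tested with limma over all 13621 genes read in kidney and called at a Benjamini-Hochberg adjusted p under 0.05. In the first step 17.5% of all genes tested rose and 25.6% fell, so 43.1% were called in either direction. In the second step 0.639% were called, 87 genes, with 1098 at an unadjusted p under 0.05. The median change over all genes tested was -0.05 in the first step and 0.00 in the second. Arrays of 1 and 4 weeks did not overlap for 7 of the 8 genes, against 30.6% of all genes tested, and those of 4 and 8 weeks did not overlap for 1, Cyp2d12, against 3% of all genes tested. Acsm3 and Cyp2d12 passed the filter on low signals only through the 4 and 8 week groups, so that they had to differ from 1 week. Of the other 6 genes, 4 rose, 1 fell and 1 was not called in the first step.

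**Figure D1:**
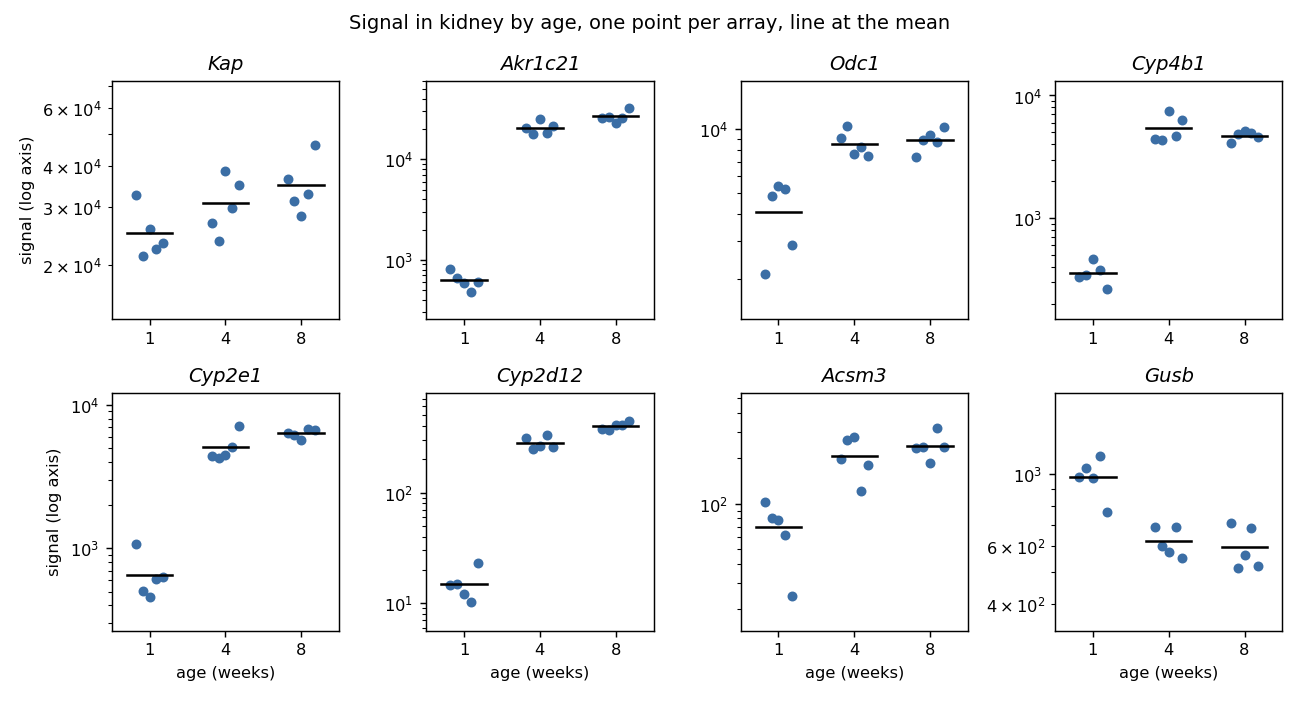
Signal of the 8 genes on the 15 kidney arrays (vertical log axis) by age in weeks, with a point for each array and a line at the mean. For 7 of the 8 genes the 1 and 4 week arrays are separate, while the 4 and 8 week arrays overlap for all but Cyp2d12, and Kap overlaps at every age.

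Kap encodes kidney androgen-regulated protein, a secreted protein made in the proximal tubule whose function is not well defined. At 1 week its signals were 32610.7, 21412.8, 25840.5, 22396.1 and 23364.3. At 4 weeks they were 26939.6, 23669.1, 38627.3, 29871.2 and 35002.8, and at 8 weeks 36642.9, 31324.8, 28298.6, 32901.7 and 46526.6. The 3 ages overlapped, and the gene was already bright in the youngest kidneys. The change from 1 to 4 weeks was 0.29 ± 0.16 (SE, n = 5 and 5, limma adjusted p = 0.17), and that from 4 to 8 weeks was 0.19 ± 0.16 (limma adjusted p = 0.88). From 1 to 8 weeks it rose by 0.48 ± 0.16, 1.39-fold (limma adjusted p = 0.024).

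The Kap call from 1 to 8 weeks did not hold after quantile normalization (0.07, limma adjusted p = 0.42), nor without 1 week replicate 2 (0.43, adjusted p = 0.059), 1 week replicate 4 (0.44, adjusted p = 0.053) or 8 week replicate 5 (0.37, adjusted p = 0.067). A second Kap probe set rose in the first step by 0.52 (limma adjusted p = 0.0062). It read 0.03 in the second step and 0.55 from 1 to 8 weeks. The probe set used ranked 4 to 24 in brightness among 45101 on the kidney arrays, and compression of such bright signals was not tested.

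Akr1c21 encodes an aldo-keto reductase that acts on steroids as a hydroxysteroid dehydrogenase. Its kidney signals were 809.8, 664.3, 590.9, 476.6 and 603.8 at 1 week, and 20517.6, 17733.8, 25086.8, 18433.1 and 21705.7 at 4 weeks. At 8 weeks they were 25550.0, 26417.2, 23258.5, 25980.6 and 32476.0. No 1 week array came near the older ones, and the ranges at 4 and 8 weeks overlapped. The first step was 5.01 ± 0.14 on the log2 scale, 32.3-fold (limma adjusted p = 1.4e-12), the third smallest p among the 13621 genes tested. The second was 0.37 ± 0.14 (limma adjusted p = 0.42).

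Of 18 other genes of androgen action and steroid conversion that could be tested in kidney, 11 rose and 1 fell from 1 to 4 weeks (median 0.38), against 17.5% and 25.6% of all genes tested (median -0.05). The steepest rise was that of Akr1c14, a 3-alpha-hydroxysteroid dehydrogenase that inactivates dihydrotestosterone, from a mean signal of 41.5 at 1 week to 383 at 4 weeks (2.79 ± 0.22, limma adjusted p = 7.1e-08). Akr1c14 and Akr1c18, also counted here, had 1 week means below 117.9. They passed the filter on low signals only through the older ages, which favoured a rise. Akr1c14 was also the only 1 of the 18 called from 4 to 8 weeks, rising by a further 1.28 ± 0.22 to 962 (limma adjusted p = 0.010). Fkbp5, a co-chaperone of steroid receptors induced by androgens and glucocorticoids, rose by 2.02 ± 0.25 in the first step, from a mean of 629 to 2613. In the second it read -1.15 ± 0.25, with a mean of 1206 at 8 weeks, and did not pass (limma adjusted p = 0.054). Srd5a3, a member of the steroid 5-alpha-reductase family, fell by 0.76.

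Odc1 encodes ornithine decarboxylase, which makes putrescine and is the rate-limiting enzyme of polyamine synthesis. Its kidney signals were 2103.2, 4854.9, 5424.1, 5223.4 and 2888.1 at 1 week, and 9101.3, 10299.0, 7613.7, 8225.2 and 7470.6 at 4 weeks. At 8 weeks they were 7366.3, 8886.2, 9405.7, 8729.1 and 10211.4. All 10 older arrays were above all 1 week arrays, and the 4 and 8 week arrays covered nearly the same range. It rose by 1.14 ± 0.22 in the first step, 2.2-fold (limma adjusted p = 6.2e-04), and the second step was 0.06 ± 0.22 (limma adjusted p = 0.98). All 3 Odc1 probe sets rose from 1 to 8 weeks, by 1.20, 1.16 and 1.39.

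The 2 lowest 1 week values of Odc1 were on replicates 1 and 5, the arrays high in liver genes. The second brightest Odc1 probe set spanned less at 1 week, 3417.4 to 4397.7, against 2103.2 to 5424.1 on the one used. The part of liver RNA in those values was not tested. Among 12 tested genes of polyamine metabolism, Odc1 included, 5 rose and 1 fell from 1 to 4 weeks and 0 were called from 4 to 8 weeks, where 43.1% and 0.639% of all genes tested were called. The count is near that share. The other 4 that rose were Arg2, the mitochondrial arginase that supplies ornithine (0.84), Sat1, the spermidine/spermine acetyltransferase of polyamine breakdown (0.48), Slc3a2 (0.37) and Azin1, which relieves inhibition of ornithine decarboxylase by antizyme (0.36). Smox, spermine oxidase, fell by 0.54. The list's median change was 0.20 in the first step and 0.02 in the second.

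Cyp4b1, Cyp2e1 and Cyp2d12 encode cytochrome P450 enzymes, which oxidise fatty acids, small molecules and drugs. Cyp4b1 read 332.4, 346.3, 466.4, 377.1 and 265.7 at 1 week, then 4394.9, 4293.7, 7399.8, 4628.0 and 6324.0 at 4 weeks. At 8 weeks it read 4128.5, 4807.9, 5107.1, 4903.7 and 4605.5. The young arrays were separate from the rest, and the 8 week arrays lay inside or just below the 4 week range. The first step was 3.85 ± 0.16, 14.4-fold (limma adjusted p = 6.7e-11), and the second was -0.17 ± 0.16 (limma adjusted p = 0.91).

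Cyp2e1, the ethanol-inducible P450, read 1071.9, 504.6, 458.3, 610.8 and 633.5 at 1 week, with the highest value on replicate 1. At 4 weeks it read 4376.2, 4288.3, 4447.1, 5063.5 and 7069.3, and at 8 weeks 6412.0, 6175.7, 5648.3, 6767.0 and 6652.5. The young arrays were again separate, and replicate 5 at 4 weeks stood above all 8 week arrays. The first step was 2.95 ± 0.19, 7.74-fold (limma adjusted p = 8.0e-09), and the second was 0.35 ± 0.19 (limma adjusted p = 0.71). Replicate 1 at 1 week, where Cyp2e1 was highest of its age, also had the highest Alb signal. Cyp2e1 is a major transcript of liver, and the part of liver RNA in that value was not tested.

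Cyp2d12, a member of the large mouse Cyp2d family, was near the floor of the arrays at 1 week, with signals of 14.5, 14.8, 12.1, 10.2 and 22.9. It read 310.4, 247.0, 262.1, 332.8 and 257.9 at 4 weeks and 376.2, 363.3, 408.6, 407.0 and 440.7 at 8 weeks. The 3 ages did not overlap. The first step was 3.27 ± 0.12 on the scale of log2(signal + 16), with a limma adjusted p of 5.6e-11 when no filter on low signals was set, which understates the change of so dim a signal. The second step was 0.48 ± 0.12 (95% interval 0.24 to 0.73), the largest second step of the 8 genes, and did not pass the test (limma adjusted p = 0.081). It passed with an offset of 64 in place of 16 (0.42, adjusted p = 0.039), without 1 week replicate 5 (adjusted p = 0.038), and without the 2 young kidneys high in liver genes (adjusted p = 0.038). Leaving out those 1 week arrays kept the estimate at 0.48. The step did not pass when no filter on low signals was set (limma adjusted p = 0.13). Nor did it pass with the level of proximal tubule markers subtracted (0.37, limma adjusted p = 0.29).

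Of 19 kidney P450 genes tested, these 3 included, 13 rose and 4 fell in the first step (median 1.22), against 17.5% and 25.6% of all genes tested. Some, among them Cyp2d12, Cyp2d9 and Cyp4a12a, had 1 week means below 117.9. They passed the filter only through the older ages, which favoured a rise. The second step held 2 calls, both higher. Cyp2d9, a male-specific steroid hydroxylase in mouse liver and a relative of Cyp2d12, rose from a mean of 412 to 770 (0.88 ± 0.18, limma adjusted p = 0.038), after 75.0 at 1 week. Cyp1b1 rose by 0.48 ± 0.10 (limma adjusted p = 0.048) after falling by 0.41 in the first step. Cyp27b1, which makes the active form of vitamin D, fell by 1.09 in the first step. Members of the Cyp2d family are alike in sequence, and cross-hybridisation between them was not tested.

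Acsm3 encodes a mitochondrial enzyme that activates medium-chain fatty acids. Its kidney signals were 103.3, 80.0, 77.7, 62.4 and 24.6 at 1 week, 198.3, 263.9, 275.6, 122.0 and 181.1 at 4 weeks, and 233.6, 236.7, 184.4, 317.9 and 235.4 at 8 weeks. The gap between the youngest and the older arrays was narrow, from 103.3 to 122.0. All 1 week signals were below 117.9, the level at which a gene was tested. The first step was 1.42 ± 0.26, with a limma adjusted p of 6.9e-04 when no filter on low signals was set, and the second was 0.23 ± 0.26 (limma adjusted p = 0.93). All 4 tested members of the family, Acsm3 included, rose in the first step, where 17.5% of all genes tested did so. The rise of Acsm3 was favoured by the filter, which it passed only through the older ages. Acsm5 rose by 2.34, Acsm2 by 1.69 and Acsm1 by 1.27.

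Gusb encodes beta-glucuronidase, a lysosomal hydrolase whose kidney activity is a classical androgen response in mice, and it was the exception in direction. Its kidney signals were 978.8, 1047.3, 971.6, 1141.6 and 764.1 at 1 week, 688.5, 602.5, 576.5, 689.3 and 552.1 at 4 weeks, and 705.3, 514.8, 562.7, 684.1 and 522.2 at 8 weeks. Every older array was below every 1 week array. It fell by 0.64 ± 0.12 on the log2 scale in the first step (limma adjusted p = 6.3e-04), and the second step was -0.06 ± 0.12 (95% interval -0.33 to 0.20, limma adjusted p = 0.97). The dimmer of its 2 probe sets fell by 1.13 in the first step and read 0.34 in the second (limma adjusted p = 0.40). Of 20 tested lysosomal genes, Gusb included, 8 rose and 3 fell in the first step and 0 were called in the second, against 17.5%, 25.6% and 0.639% of all genes tested. Hexa, the alpha subunit of beta-hexosaminidase, fell by 0.95, while Arsb, arylsulfatase B, rose by 1.07 and Neu1, a sialidase, by 0.75.

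The steps themselves were compared within the same fit. The change from 4 to 8 weeks minus that from 1 to 4 weeks was called below 0 for 4 of the 8 genes. These were Akr1c21 (-4.64 ± 0.24, limma adjusted p = 9.8e-09), Cyp4b1 (-4.01 ± 0.28), Cyp2d12 (-2.79 ± 0.20) and Cyp2e1 (-2.60 ± 0.33, adjusted p = 5.4e-05). Of all genes tested, 8.19% were called in that direction and 18.8% in either. For Kap (-0.10, limma adjusted p = 0.87), Odc1 (-1.07, adjusted p = 0.066), Acsm3 (-1.19, adjusted p = 0.082) and Gusb (0.58, adjusted p = 0.079) the difference between the steps did not pass. From 1 to 8 weeks 7 of the 8 were higher and 1 lower, where 19.5% of all genes tested were higher and 28.2% lower (47.7% in either direction). Cyp2d12 is among the 4 genes with a larger first step, and Cyp2d12 and Acsm3 are among the 7. Both passed the filter on low signals only through the 4 and 8 week groups, which favoured a rise from 1 week.

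**Figure D2:**
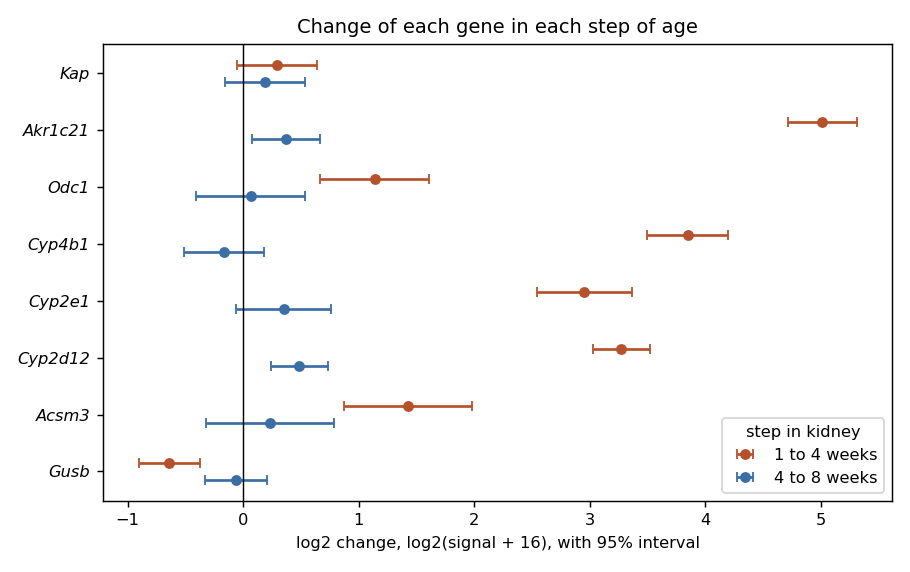
Change of each gene in kidney in the 2 steps of age, as log2(signal + 16) with the 95% interval from the limma fit. The first step runs from -0.64 for Gusb to 5.01 for Akr1c21, while in the second all 8 genes lie between -0.17 and 0.48.

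Wider lists of sex-biased kidney genes were read in the same way. Of 17 other male-biased genes tested, 12 rose and 3 fell from 1 to 4 weeks (median 0.76), against 17.5% and 25.6% of all genes tested. From 4 to 8 weeks 0 were called (median -0.06), against 0.639% of all genes tested. Serpina1f rose by 6.29 ± 0.11, from a mean of 104 to 9288, Nudt19, a peroxisomal hydrolase of coenzyme A, by 2.20, Hsd11b1, which reactivates glucocorticoid, by 2.11, and Slc22a12, the urate transporter, by 2.00. Cyp2j13 fell by 1.55, Aoc1, diamine oxidase, by 1.03 and Cyp7b1 by 0.72. From 1 to 8 weeks 11 of the 17 rose and 4 fell, against 19.5% and 28.2% of all genes tested. Slc7a13, not called in either step, was among those that fell (-0.88 ± 0.22, limma adjusted p = 0.0033). Of 7 female-biased genes tested, 6 rose and 0 fell in the first step (median 1.64), against 17.5% and 25.6% of all genes tested. In the second step 0 were called (median 0.45), with values from -0.79 for Abcc3 to 0.90 for Akr1c18. The organic anion transporter Slc22a7 rose by 3.31, Akr1c18, a progesterone-metabolising reductase, by 2.53 and the amino acid transporter Slc7a12 by 2.32. Genes listed as male-biased and as female-biased thus both held more rises than falls in the first step. Serpina1f and Cyp4a12a among the male-biased genes, and Abcb1a and Akr1c18 among the female-biased, had 1 week means below 117.9. They passed the filter only through the older ages, which favoured a rise. Cyp2j13 passed it only through 1 week, which favoured its fall.

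Markers of the proximal tubule rose in the first step, as did the 6 genes called higher, while Gusb fell. Kap was not called on the probe set used (0.29), and its second probe set rose (0.52, limma adjusted p = 0.0062). All 13 tested markers rose from 1 to 4 weeks (median 1.43), and 0 were called from 4 to 8 weeks (median 0.14), where 17.5% of all genes tested rose in the first step and 0.639% were called in the second. Slc13a3, a dicarboxylate transporter, rose by 2.66, Acy3 by 2.27 and the neutral amino acid transporter Slc6a19 by 2.01. The mean log2 level of the markers was 11.94 to 12.15 on the 1 week arrays, 13.22 to 13.56 at 4 weeks and 13.39 to 13.52 at 8 weeks, with no overlap between 1 week and the rest. Among markers of other tissues, 0 rose and 5 fell of 9 liver genes in the first step, 1 rose of 7 adrenal genes, 0 of 3 adipocyte genes were called, and Defb19, the 1 gene of the male tract that could be tested, fell by 4.05. In whole kidney, fewer cells of a type and less RNA per cell cannot be told apart.

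With the mean marker level of each array subtracted from every gene, an alternative added after the data were seen, Akr1c21 was higher by 3.66 at 4 weeks than at 1 week, Cyp4b1 by 2.49, Cyp2d12 by 1.92 and Cyp2e1 by 1.60. These 4 remained called (largest limma adjusted p = 3.4e-07, for Cyp2e1). Odc1 (-0.22, adjusted p = 0.42) and Acsm3 (0.07, adjusted p = 0.78) were no longer called. Kap turned to -1.07 (adjusted p = 8.3e-07) and Gusb read -1.99. The subtraction shifts every gene downward together, and 12987 of the 13621 genes tested were then called.

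**Figure D3:**
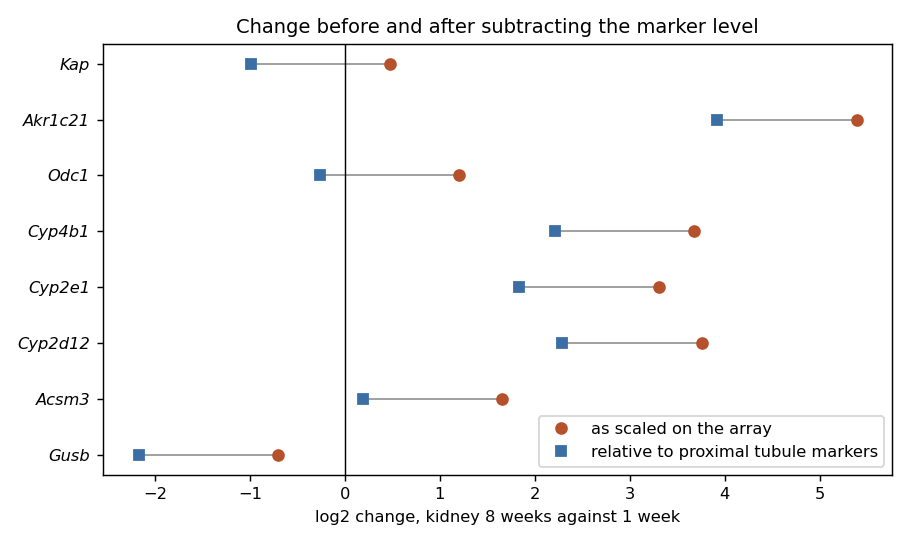
Change in kidney from 1 to 8 weeks (log2) for each gene as scaled on the array (circles) and after the mean level of the proximal tubule markers was subtracted (squares). Akr1c21, Cyp4b1, Cyp2d12 and Cyp2e1 remain at 1.83 or higher, Odc1 and Acsm3 move to -0.27 and 0.19, and Kap changes sign to -0.99.

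Lung and heart show which of these changes other organs shared. Levels of Kap, Akr1c21, Cyp2e1, Cyp2d12 and Acsm3 were highest in the 8 week kidney, with 4 week kidney next. The level of Odc1 was highest in those same 2 groups, and 1 week kidney (4099 ± 1503, SD, n = 5) overlapped 1 week lung (4097 ± 765, SD, n = 4). At 8 weeks kidney exceeded lung for 6 of the 8 genes and was below it for 2, where 29.1% of all 14868 genes tested across organs were higher in kidney and 36% lower (65.2% in either direction). Cyp2d12 and Acsm3 were below the filter in lung and entered through kidney alone, which fixed their direction. At 4 weeks the counts were again 6 and 2, under the same limit, against 27.9% and 35.9% of all genes tested. At 1 week 5 were higher in kidney and 2 lower, against 24.4% and 25.3% (49.7% in either direction), and Odc1 did not pass (-0.07, limma adjusted p = 0.78). Cyp2d12 and Acsm3, among the 5, were below 117.9 in both organs at 1 week and entered through the older kidneys. Cyp2d12 then read 10.2 to 22.9 in kidney and 1.7 to 18.5 in lung, ranges that overlapped (limma adjusted p = 0.036). Akr1c21 was 158-fold higher in kidney than in lung at 8 weeks and Kap 76.3-fold. Cyp4b1 was 2.28-fold lower and Gusb 1.92-fold lower.

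Kap differed most between its probe sets outside the kidney. The probe set used read 338.6 to 847.6 in lung and 268.5 to 567.7 in heart, while the second read 17176.4 to 43432.6 in kidney, 1.4 to 12.8 in lung and 4.1 to 9.0 in heart. The fall of Kap in lung from 1 to 8 weeks on the first probe set (-0.59, limma adjusted p = 0.0071) was 0.17 on the second (adjusted p = 0.37). The kidney change minus the lung change of Kap was 1.07 (limma adjusted p = 0.0022) on the first probe set and 0.38 (adjusted p = 0.13) on the second. What the first probe set reads outside the kidney was not tested.

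**Figure D4:**
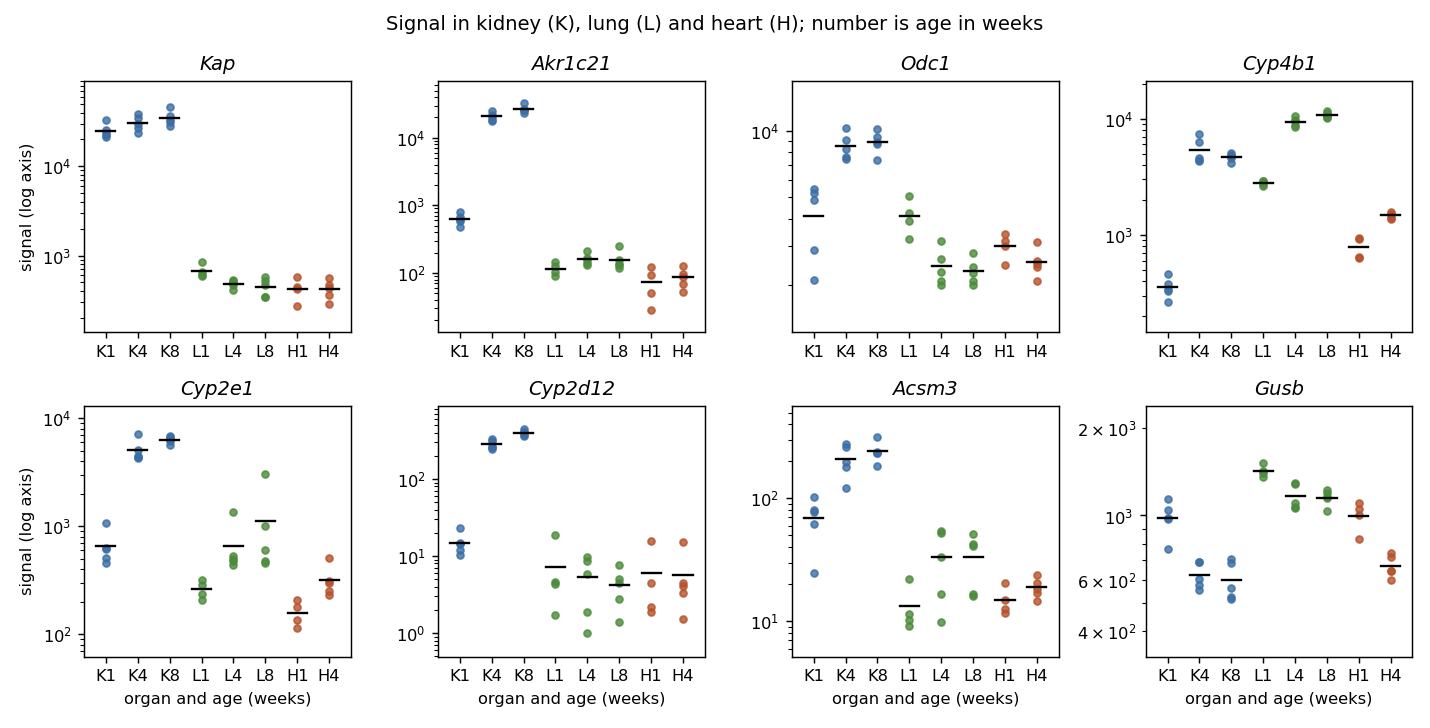
Signal of the 8 genes (vertical log axis) in kidney, lung and heart at each age, with a point for each of the 38 arrays used and a line at the mean. Kap and Akr1c21 are far higher in kidney, Cyp4b1 is highest in lung at 4 and 8 weeks, and Gusb is lower in older than in young arrays of each organ.

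In lung, 6 of the 8 genes could be tested from 1 to 8 weeks, and 2 rose and 3 fell, where 22.3% of all genes tested rose and 22.2% fell (44.5% in either direction). From 1 to 4 weeks 1 rose and 3 fell, against 20.2% and 20% of all genes tested (40.2% in either direction), and from 4 to 8 weeks 0 were called, against 0.934% higher and 1.17% lower (2.1% in either direction). Cyp4b1, a major P450 of the lung, read 2660.6 to 2927.7 at 1 week (median 2815), 8448.8 to 10432.2 at 4 weeks (median 9538) and 10141.4 to 11599.1 at 8 weeks (median 10452.5). The young lungs were separate from the older ones, as in kidney. It rose by 1.93 ± 0.08 (limma adjusted p = 2.0e-10). In order of level, 8 week and 4 week lung came first, then 4 week and 8 week kidney, whose ranges overlapped, then 1 week lung, heart and, lowest, 1 week kidney. Its rise from 1 to 8 weeks was larger in kidney than in lung by 1.75 ± 0.19 (limma adjusted p = 9.0e-09).

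Odc1 moved in opposite directions in the 2 organs. In lung it read 3217.4 to 5057.7 at 1 week and 2009.8 to 2809.3 at 8 weeks, with no overlap, and fell by 0.81 ± 0.15 (limma adjusted p = 6.1e-04). The difference in change between kidney and lung was 2.01 ± 0.27 (limma adjusted p = 4.1e-07). Gusb fell in lung too, from 1354.0 to 1512.6 at 1 week to 1037.9 to 1225.7 at 8 weeks (-0.30 ± 0.08, limma adjusted p = 0.0074), and in heart from 827.9 to 1107.6 at 1 week to 600.9 to 743.7 at 4 weeks (-0.56 ± 0.12, limma adjusted p = 0.0064). Its change from 1 to 8 weeks was lower in kidney than in lung by a difference of -0.40 ± 0.15 (limma adjusted p = 0.042), which did not pass after quantile normalization (-0.24, adjusted p = 0.24) or on the second probe set (-0.47, adjusted p = 0.091). Its change from 1 to 4 weeks differed between kidney and heart by -0.08 ± 0.15 (95% interval -0.38 to 0.23, limma adjusted p = 0.78).

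Cyp2e1 in lung read 284.2, 316.9, 237.3 and 205.9 at 1 week, 501.2, 473.2, 442.0, 1339.5 and 524.4 at 4 weeks, and 604.3, 456.5, 3049.6, 475.1 and 1012.5 at 8 weeks. All older lungs were above the young ones, and 2 arrays stood far above the others of their age. The adipocyte hormone Adipoq read 7338.5 on the 8 week array with 3049.6, 2579.7 on the 4 week array with 1339.5, and 1935.4 on the 8 week array with 1012.5. The rise from 1 to 8 weeks was 1.64 ± 0.47 (limma adjusted p = 0.012). It was 1.18 (limma adjusted p = 0.0014) without the 3 lung arrays with a mean adipocyte marker level over 8 on the log2 scale. Those 3 were 4 week lung 1, 4 week lung 4 and 8 week lung 3. The 8 week array with 1012.5 for Cyp2e1 was kept. This alternative was added after the data were seen.

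**Figure D5:**
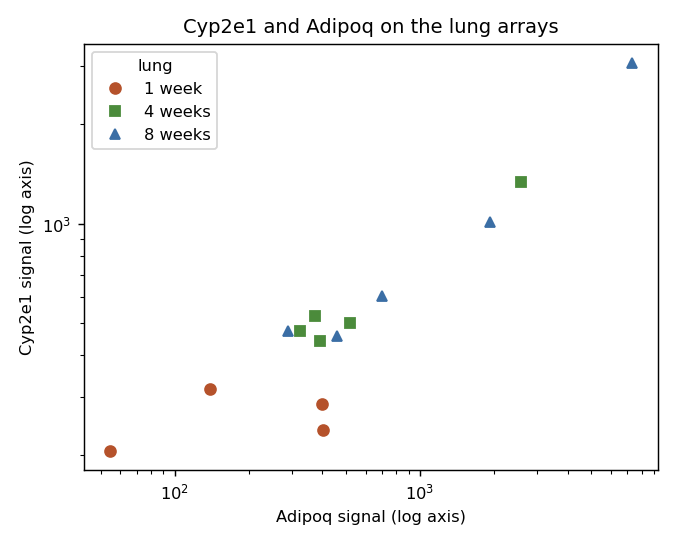
Signal of Cyp2e1 against that of the adipocyte gene Adipoq (both log axes) on the 14 lung arrays, marked by age. The 8 week array with 7338.5 for Adipoq also has the highest Cyp2e1, 3049.6.

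In heart, 5 of the 8 genes could be tested from 1 to 4 weeks, and 2 rose and 1 fell, where 12% of all genes tested rose and 15% fell (26.9% in either direction). Cyp4b1 rose by 0.91 ± 0.14 (limma adjusted p = 0.0013) and Cyp2e1 by 0.92 ± 0.23 (limma adjusted p = 0.015). Neither call held with the 1 week array that went against its label kept. The change from 1 to 4 weeks was larger in kidney than in heart for 6 of the 8 genes, where 10.3% of all genes tested differed in that direction. Of these 6, Akr1c21, Cyp2d12 and Acsm3 were below the filter in heart. Cyp2d12 and Acsm3 entered the comparison through kidney alone, where they are high, and Akr1c21 through kidney and lung. From 1 to 8 weeks kidney gained more than lung for 6 of the 8 and less for 1, where 11.9% and 18.8% of all genes tested did so. Cyp2d12, 1 of the 6, was below the filter in lung and entered through kidney alone. From 4 to 8 weeks a difference in change between kidney and lung was called for 0 of the 8, against 0.195% of all genes tested (0.074% in the direction of a larger kidney change). These differences between organs share the kidney arrays.

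Across the 15 kidney arrays the genes most like each of the 8, by Pearson's r over 12869 genes, were found as a description, since all arrays share the age groups. Akr1c21 was most like Rdh16f2 (r = 0.998), Cpeb3 and Egf. Cyp2d12 was most like Cyp2c23 (r = 0.99), Ugt2b38 and Akr1c21 itself. Cyp4b1 was most like Slc22a13 (r = 0.997), Slc16a9 and Aldh8a1, and Cyp2e1 like Gys2 (r = 0.99), Hpd and Cideb. Odc1 was most like Plscr2 (r = 0.98) and Acsm3 like Unc119b (r = 0.94). Gusb was most like Chaf1b, a chromatin assembly factor of dividing cells (r = 0.93), which itself read -1.56 from 1 to 8 weeks. Kap was most like Atp5g3 (r = 0.99), Eef1a1 and Tpt1, abundant genes of energy metabolism and translation. Of the other members, Kap correlated with Akr1c21 at 0.65 and with Odc1 at 0.32, against 0.99 between Akr1c21 and Cyp4b1. These pooled values carry the differences between ages. With the mean of each age removed the same pairs stood at 0.79, -0.48 and 0.21, and the 28 pairs of members ranged from -0.78 to 0.79.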

How the data were processed

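Transcripts were measured on 40 Affymetrix arrays. The deposited intensity values are linear, and per the submitters' processing notes RMA and Partek 6.6 were used, with no role given; the trimmed mean of each array (2% off each end) is 500, and no detection calls were used here. The members and lists were chosen with earlier results of these data known. Of 45101 probe sets, 34958 carried 1 gene symbol. Signals were taken as log2(signal + 16), and a gene was tested in an organ where its highest group mean on that scale reached the 40th percentile signal, 117.9. This filter replaced one on linear means after a first run; the members called were equal in number under both. Each organ was fitted in limma 3.58.1 (R 4.3.3), and differences between organs in 1 fit of the 38 arrays, treating arrays as independent. P-values were adjusted by Benjamini-Hochberg over all genes tested, with a threshold of 0.05. Signal over background limits precision.

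Genes named were the 8 members, their 3 nearest genes by correlation, and up to 4 per list called in each comparison with the largest change, with other genes of the lists added for their role after values were seen. Promoter motifs were chosen after the data were seen. On data simulated for kidney 8 against 4 weeks (13621 genes), 38.8% of changes of 1.5-fold, 71.6% of 2-fold and 100% of 4-fold were recovered, and 5.41% of calls were false. Kidney arrays of different ages that share a replicate number did not deviate together (15 pairs, correlation -0.28 to 0.31), and the labels tie no such arrays to 1 animal. Organs of 1 age may share an animal: 30 of the 38 arrays share a sample number in the labels with another organ, and these 18 pairs had correlations of -0.17 to 0.25 (median -0.01). The highest correlation between 2 arrays was 0.979. Alternatives covered the offset, quantile normalization, the filter, the fit, the probe set, a replicate block, control probe sets as a covariate, and leaving out each array.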

Additional observations from a re-analysis of the deposited data

Results flagged for a closer look

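Of 64 groups (8 genes in 8 organ and age groups), 7 held an array far from the rest of its group; the 95% critical value used flags about 1 in 20 groups by chance. For Cyp2e1 these were 1 week kidney 1 (1071.9, others 458.3 to 633.5), 4 week kidney 5 (7069.3, others 4288.3 to 5063.5), 4 week heart 5 (509.9, others 230.8 to 310.4), 4 week lung 4 (1339.5, others 442.0 to 524.4) and 8 week lung 3 (3049.6, others 456.5 to 1012.5). The remaining 2 were Akr1c21 on 8 week lung 1 (246.7, others 119.8 to 155.1) and Cyp2d12 on 4 week heart 3 (15.2, others 1.5 to 4.4), a signal near the floor. So 5 of the 7 were Cyp2e1, in 3 organs.

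The change with age differed between organs, by the interaction in limma, in 13 of 24 tests. None of the 13 was of the step from 4 to 8 weeks. Of all genes tested, 30.7% were called for kidney minus lung from 1 to 8 weeks. The share was 23.8% for kidney minus heart from 1 to 4 weeks and 0.195% for kidney minus lung from 4 to 8 weeks. From 1 to 8 weeks the kidney change minus the lung change was 1.07 for Kap (0.38, not called, on the second probe set), 5.01 for Akr1c21, 2.01 for Odc1, 1.75 for Cyp4b1, 1.66 for Cyp2e1, 3.92 for Cyp2d12 and -0.40 for Gusb. From 1 to 4 weeks the kidney change minus the heart change was 4.74 for Akr1c21, 1.39 for Odc1, 2.93 for Cyp4b1, 2.03 for Cyp2e1, 3.29 for Cyp2d12 and 1.25 for Acsm3. Cyp2d12 in lung and heart, and Akr1c21 and Acsm3 in heart, were below the filter. Values are on the log2(signal + 16) scale.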

How the results depend on the processing

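Counts of the 8 genes called in kidney, in either direction, were 7 from 1 to 4 weeks and 8 from 1 to 8 weeks. Of all genes tested, 43.1% and 47.7% were called. Both counts kept within 1.5 times under the alternatives run, a measure that takes no account of direction. With the tubule marker level subtracted 6 members were called in each comparison, with Kap and Gusb lower and Odc1 and Acsm3 no longer called. From 4 to 8 weeks the count was 0, and 1, Cyp2d12, with an offset of 64, without the 2 kidneys high in liver genes, and without 1 week replicate 5 (leave-one-out range 0 to 1). The genes called from 4 to 8 weeks numbered 142 with all organs in 1 fit, against 87. With the second brightest probe set 3 members were called in lung, and with the arrays against their label kept 1 in heart, since Cyp4b1 (0.55) and Cyp2e1 (0.75) no longer passed. Subtracting the tubule marker level moved the genes called to 12987 and 13010 by its construction, turned Odc1 to -0.22, -0.051 and -0.27 in the first step, the second step and from 1 to 8 weeks, and turned Kap to -1.07 and -0.99. Other changes of sign were of values not called in either setting, or of a probe set: with the second probe set Odc1 read -0.060 and Gusb 0.34 from 4 to 8 weeks, and Kap 0.17 in lung, and in kidney minus lung from 4 to 8 weeks Kap read -0.23, Odc1 -0.16 and Gusb 0.19. The change of Kap in heart, 0.00, read -0.020 with a replicate block, -0.013 with control probe sets as a covariate, -0.089 with the arrays against their label kept, and -0.19 to 0.15 leaving out each array. Kap in kidney minus heart read -0.037 after quantile normalization, and Gusb in kidney minus heart 0.023 with the arrays against their label kept. Kap in kidney from 1 to 8 weeks ranged from 0.37 to 0.58 leaving out each array, and read 0.45 without the 2 kidneys high in adrenal genes (adjusted p = 0.085). The cause of these changes was not tested. With a replicate block, 0, 7 and 8 members were called from 4 to 8, 1 to 4 and 1 to 8 weeks, so the block changed no count of members in kidney. With the sample number in the labels as a random block (correlation 0.015) no call of a difference between organs changed. The second probe set for differences between organs, that random block, the tubule, liver, adrenal and adipocyte alternatives and the linear filter were added after seeing the data.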
